A study of Mus musculus with 11 samples.

Results

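Cardiac fibroblasts were followed in whole-heart RNA through 10 marker genes: the growth factor receptor Pdgfra, the collagen receptor Ddr2, the transcription factor Tcf21, the cytoskeletal genes Vim and Gsn, and the matrix genes Fn1, Postn, Dcn, Lum and Dpt. The genes were found by matching the RefSeq accession of each row to its symbol, and 9 of the 10 had a row, 1 each, among 21878 rows. Postn, which encodes periostin of activated fibroblasts, had no matching row and was not analysed here. All 9 genes passed the filter on low values, a mean of at least 1 FPKM (reads per unit of transcript length, scaled to library size) over the samples, which left 10891 rows for testing. The hearts came from female wild-type mice, 6 in the control group, exposed to vehicle (phosphate-buffered saline) before birth, and 5 in the group called PCOS, exposed to anti-Müllerian hormone before birth as a model of polycystic ovary syndrome. Apart from the prenatal treatment the labels give both groups the same genotype and tissue, and they give no age or litter. Whether each sample is a different mouse is not stated, and the spread on which the p-values rest may therefore be partly technical.

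Fibroblasts lie between the heart muscle cells and along the vessels, where they make and remodel the collagen-rich matrix. Most of them descend from the epicardium, the outer cell layer of the heart, and depend there on Tcf21 and on signalling through Pdgfra. After injury they are known to divide, to secrete collagens, fibronectin and periostin, and in part to turn into contractile myofibroblasts. Several of these markers are not exclusive: Vim is also made by endothelial cells and leukocytes, and Fn1 by endothelial cells, macrophages and, as plasma fibronectin, by the liver. In whole-tissue RNA, fewer cells of a type and less RNA per cell cannot be told apart.

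A pair of control libraries stood apart in these genes. Reads recovered from the FPKM values summed to between 11866291 and 14346620 per sample. Control replicate 6 had the lowest median correlation with the other libraries (Pearson r 0.962 across tested genes, against 0.987 to 0.993 in the other 10), and its 10 hepatocyte markers summed to 1625 FPKM, against at most 12.5 FPKM in any other library. Control replicate 4 had the lowest level of the 11 samples in all 9 fibroblast markers, while it was lowest in 20.8% of all tested rows. In the same library the 6 endothelial markers summed to 207.7 FPKM, against 245.4 FPKM or more in the other samples, and the smooth muscle and pericyte, macrophage, lymphocyte and red blood cell lists were at their lowest too. Its cardiomyocyte list, at 28404 FPKM, ranked 2 of 11 from below, and its atrial list was the highest, at 1476 FPKM, almost all of it Nppa. Myl7, another gene of the atrial list, was at its lowest in this library, at 0 FPKM. Results are therefore given with all samples and without each of these libraries.

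The markers spanned about 2 orders of magnitude in FPKM, a scale that divides by transcript length and so allows levels of genes to be compared. Gsn was the most abundant, with a mean of 374.8 FPKM over the 11 samples, followed by Dcn (196.7), Vim (169.7), Dpt (53.7), Lum (36.7), Fn1 (7.11), Tcf21 (6.78), Pdgfra (4.27) and Ddr2 (3.31). Gsn exceeded Dcn, Vim exceeded Dpt and Lum exceeded Fn1 with no overlap of their ranges. Dcn was above Vim in 9 of 11 samples, Fn1 above Tcf21 in 5 of 11 and Pdgfra above Ddr2 in 9 of 11, so the order of these neighbours was not the same in every sample. Depth followed level and length: Tcf21, with a short transcript, had only 67 to 140 reads per sample, Ddr2 234 to 479 and Gsn 10065 to 18683.

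The RefSeq promoter table (GRCm38.p6, the assembly that mm10 carries) held 7 of the 10 genes, without Fn1, Dcn and Lum. Tcf21 and Ddr2 are printed because they had the highest correlation over samples among markers with an entry (given below), and Dpt because its window held the most E-boxes, the letters CANNTG that are the general target of basic helix-loop-helix factors such as Tcf21. Each is the 250 bases before an annotated start, 5′ to 3′ on the gene's strand, with E-boxes in capitals. For Ddr2 this start lies inside the gene, whose span reaches position 170110836 on chromosome 1. The Pdgfra window, not printed, also lies inside its gene. Whether the measured transcripts begin at these starts was not examined. Tcf21 is read from the minus strand of chr10:22820144-22820393, Ddr2 from the minus strand of chr1:170088945-170089194 and Dpt from the plus strand of chr1:164796413-164796662.
Tcf21: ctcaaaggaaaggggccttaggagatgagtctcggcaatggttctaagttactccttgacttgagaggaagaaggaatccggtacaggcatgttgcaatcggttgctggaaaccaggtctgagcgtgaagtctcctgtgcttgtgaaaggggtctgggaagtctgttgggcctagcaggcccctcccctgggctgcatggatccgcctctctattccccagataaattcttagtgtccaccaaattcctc
Ddr2: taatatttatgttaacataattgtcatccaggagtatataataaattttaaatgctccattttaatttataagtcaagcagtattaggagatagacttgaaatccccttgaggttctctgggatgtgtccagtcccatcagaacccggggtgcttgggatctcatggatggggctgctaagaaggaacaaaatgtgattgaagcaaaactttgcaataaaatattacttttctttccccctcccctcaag
Dpt: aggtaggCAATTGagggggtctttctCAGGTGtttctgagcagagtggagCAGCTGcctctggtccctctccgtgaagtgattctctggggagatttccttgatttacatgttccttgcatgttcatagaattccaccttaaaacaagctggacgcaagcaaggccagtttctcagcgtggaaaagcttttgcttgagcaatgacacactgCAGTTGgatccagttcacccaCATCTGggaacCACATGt
The Dpt window held 6 E-boxes and that of Pdgfra held 1, and each of the 3 annotated Gsn starts had 1 or 2. The windows of Tcf21, Ddr2 and Vim held none. E-boxes are common, in 66.2% of all 32851 promoter windows of this length searched on both strands. A TATA box (TATAAA, both strands) was found before Ddr2, Vim and 1 of the 2 Postn starts, and in 12.4% of all windows. A GC box (GGGCGG, both strands) was in all 3 Gsn windows and in none of those of Tcf21, Ddr2, Dpt, Vim, Pdgfra and Postn, against 32.7% of all windows. No window printed here held more than 1 of these motif types, so none overlapped. GC content ran from 37.6% for Ddr2 to 60.8% for 1 of the Gsn windows.

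None of the 9 markers passed the test of PCOS against control hearts across all rows. With limma, 0 of 9 passed an adjusted p of 0.05 and 0 of 9 had an unadjusted p under 0.05, and limma's voom on the recovered reads gave 0 and 0. Across all tested rows 0.138% were called, all of them higher in PCOS, and 6.68% had an unadjusted p under 0.05 (3.51% higher and 3.17% lower in PCOS). The median log2 difference of the 9 markers was 0.08 (PCOS minus control, computed on log2(FPKM + 1), as are the gene differences below), with 6 higher and 3 lower. Over all tested rows the median was 0.00, with 50.6% higher. In every marker all 5 PCOS values lay inside the range of the controls, as they did in 45% of all tested rows. Control replicate 4 set the lower end of that range in all 9 markers, and control replicate 6 the upper end in 6. Groups without overlap were found in 0 of 9 markers and in 0.698% of all tested rows. The spread was smaller in PCOS than in controls in all 9 markers, with a median coefficient of variation of 9.87% against 23.8%, and so it was in 72.1% of all tested rows. Without control replicates 4 and 6 the median of the controls was 11.6%, and 5 of 9 markers had the smaller spread in PCOS, as did 49.2% of all tested rows.

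**Figure D1:**
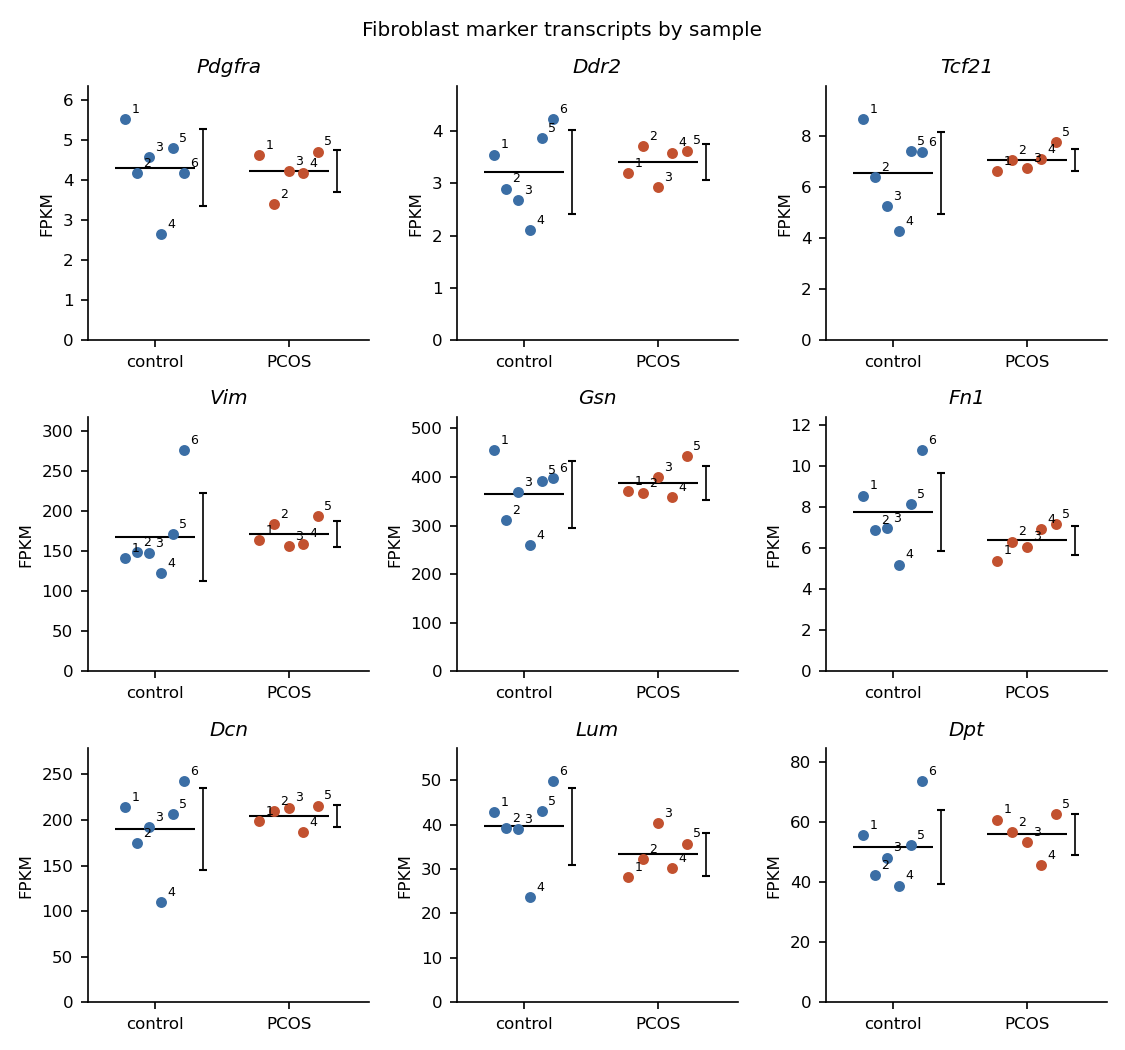
FPKM of each of the 9 fibroblast markers in 6 control and 5 PCOS samples; points are samples with their replicate number, horizontal lines are means and the bars beside them are ± SD. Control replicate 4 is the lowest point in every panel, and the PCOS samples lie within the range of the controls.

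The receptors were at near-equal levels in both groups. Pdgfra, the receptor for platelet-derived growth factor that marks fibroblasts, lies on chromosome 5 from 75151322 to 75198206 (mm10). Its FPKM was 2.64, 4.38 and 5.52 as the lowest, median and highest control, and 4.62, 3.399, 4.23, 4.17 and 4.71 in PCOS replicates 1 to 5. Both groups centred just above 4, at 4.31 ± 0.957 FPKM (SD, n = 6) and 4.23 ± 0.518 FPKM (SD, n = 5), with a log2 difference of −0.01 (SE 0.13, 95% confidence interval −0.28 to 0.27, limma adjusted p = 0.988). Leaving out control replicate 4 gave −0.11, and leaving out control replicate 6 gave −0.01. Ddr2, a receptor tyrosine kinase activated by fibrillar collagen, lies on chromosome 1 from 169972307 to 170110836. Control values ran from 2.10 over a median of 3.23 to 4.23 FPKM, and the PCOS replicates were at 3.20, 3.72, 2.92, 3.59 and 3.63 FPKM. The log2 difference was 0.08 (SE 0.12, 95% confidence interval −0.18 to 0.35, adjusted p = 0.871). Without control replicate 4 it was −0.00, and without control replicate 6 it was 0.15.

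Tcf21, the helix-loop-helix factor of epicardium-derived fibroblasts on chromosome 10 (22817263 to 22820143), was also within the spread of the controls. The lowest, median and highest controls were at 4.28, 6.87 and 8.65 FPKM, and PCOS replicates 1 to 5 at 6.63, 7.04, 6.75, 7.09 and 7.76 FPKM. PCOS minus control was 0.12 on the log2 scale (SE 0.13, 95% confidence interval −0.16 to 0.40, adjusted p = 0.83), 0.02 without control replicate 4 and 0.15 without control replicate 6.

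Both cytoskeletal markers were abundant. Vim, the intermediate filament protein of mesenchymal cells, lies on chromosome 2 from 13574311 to 13582826. Its control values ran from 123.2 over a median of 148.1 to 276.3 FPKM, and the PCOS replicates were at 164.2, 183.8, 156.9, 159.6 and 194 FPKM. All 5 PCOS samples were above the control median, and the highest control was replicate 6, the library with hepatocyte transcripts. The log2 difference was 0.08 (SE 0.16, 95% confidence interval −0.27 to 0.43, adjusted p = 0.91). Without control replicate 6 it was 0.23 (SE 0.09, unadjusted p = 0.0193, limma adjusted p = 0.178), and without control replicate 4 it was −0.00. Since Vim is also made by leukocytes, the macrophage list is given beside it: 7 of 7 tested members were higher in PCOS, with a summed level of 130.9 to 253.3 FPKM in controls and 279.6 to 390.1 FPKM in PCOS, and its part in the level of Vim was not tested. Gsn, which encodes the actin-severing protein gelsolin, lies on chromosome 2 from 35256359 to 35307902. It ran from 259.1 over a median of 381.2 to 455.2 FPKM in controls, with PCOS replicates at 370.4, 366.4, 400.1, 358.1 and 442.8 FPKM. Gsn differed by 0.11 on the log2 scale (SE 0.12, 95% confidence interval −0.16 to 0.37, adjusted p = 0.835), and by 0.02 without control replicate 4 and 0.14 without control replicate 6.

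Among the matrix genes, Fn1 and Lum had negative differences and Dcn and Dpt positive ones. Fn1, which encodes fibronectin, the adhesive scaffold on which collagen is laid down, lies on chromosome 1 from 71585473 to 71653280. Control values ran from 5.19 over a median of 7.54 to 10.8 FPKM, and PCOS replicates 1 to 5 were at 5.39, 6.31, 6.07, 6.90 and 7.15 FPKM. No PCOS sample reached the control median, yet control replicate 4 lay below all of them. The log2 difference was −0.22 (SE 0.13, 95% confidence interval −0.51 to 0.07, adjusted p = 0.753). Control replicate 6 was the highest sample, as it was in 6 of the 9 markers, and the only one rich in hepatocyte transcripts. The part of those transcripts in the level of Fn1 was not tested. Without control replicate 6 the difference was −0.13. Without control replicate 4 it was −0.32 (SE 0.11, unadjusted p = 0.0141, adjusted p = 0.759).

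Lum encodes lumican, a small leucine-rich proteoglycan that spaces collagen fibrils. It lies on chromosome 10 from 97565501 to 97572703. It ran from 23.7 over a median of 41 to 49.7 FPKM in controls, against 28.2, 32.2, 40.3, 30.1 and 35.7 FPKM in PCOS. Here too every PCOS sample was below the control median and above control replicate 4. The log2 difference was −0.22 (SE 0.15, 95% confidence interval −0.55 to 0.11, adjusted p = 0.774). Without control replicate 4 it was −0.36 (SE 0.10, unadjusted p = 0.0037, adjusted p = 0.732). Without control replicate 6 it was −0.15 (unadjusted p = 0.335, adjusted p = 0.617), and without both it was −0.30 (adjusted p = 0.177).

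Dcn encodes decorin, another small leucine-rich proteoglycan, which binds collagen and transforming growth factor beta. It is the neighbour of Lum, from 97479500 to 97518163 on chromosome 10. The controls ran from 110 over a median of 199.2 to 242.5 FPKM, and the PCOS replicates were at 198.5, 209.5, 213.4, 186.9 and 215.8 FPKM. Dcn differed by 0.15 on the log2 scale (SE 0.16, 95% confidence interval −0.19 to 0.48, adjusted p = 0.827), −0.00 without control replicate 4 and 0.23 without control replicate 6. Dpt encodes dermatopontin, a matrix protein that binds decorin, and lies on chromosome 1 from 164796663 to 164824274. Its control values ran from 38.9 over a median of 50.3 to 73.7 FPKM, and the PCOS replicates were at 60.9, 56.8, 53.5, 45.8 and 62.7 FPKM, with a log2 difference of 0.13 (SE 0.14, 95% confidence interval −0.17 to 0.43, adjusted p = 0.828). Leaving out control replicate 4 gave 0.05 for Dpt, and leaving out control replicate 6 gave 0.24 (SE 0.11, unadjusted p = 0.0446, adjusted p = 0.246).

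**Figure D2:**
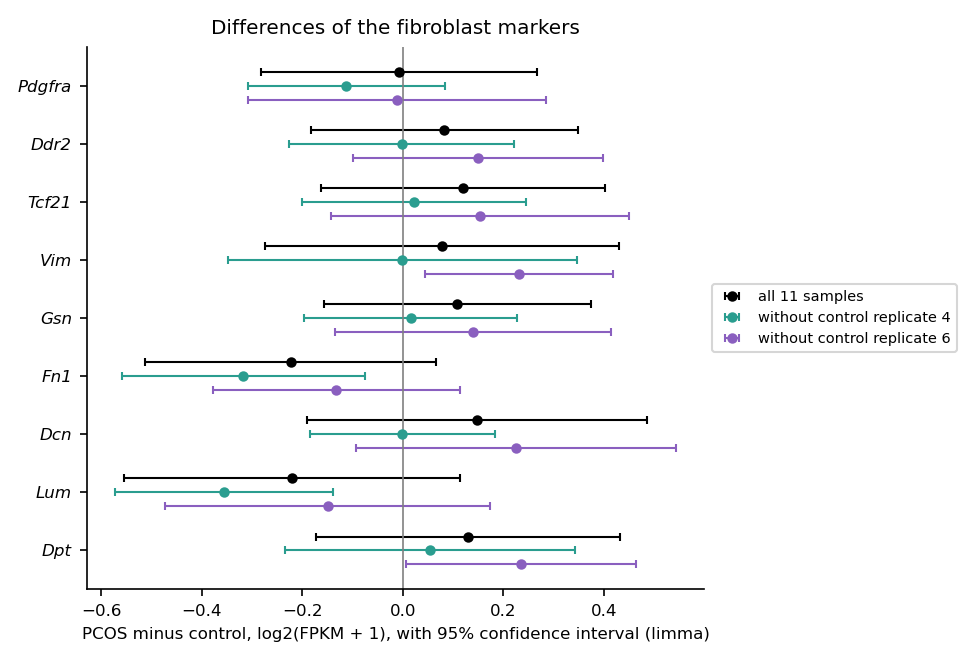
Log2 difference (PCOS minus control, horizontal axis) of each marker with its 95% confidence interval from limma, for all 11 samples and without control replicate 4 or 6. All 9 intervals of the full fit include 0, and leaving out control replicate 4 moves every difference down.

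The intervals bound how large a change could have gone unseen. For the 9 markers the lower bounds corresponded to folds of 0.681 (Lum) to 0.896 (Gsn) and the upper bounds to folds of 1.05 (Fn1) to 1.40 (Dcn) on this scale, so that a doubling lay outside every interval.

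Across libraries the markers tended to be high or low together. Of 36 pairs of markers, 16 had a Pearson correlation of log2(FPKM + 1) over the 11 samples that passed (permutation test, 100000 resamples, two-sided, adjusted over the 36 pairs), and 10 did so by Spearman's rho. Of the 36 pairs 17 had an r of at least 0.716, the lowest value that passed, as did 3.72% of all pairs of tested rows. The median r was 0.68, against 0.03 over all pairs of tested rows, and ran from 0.18 for Pdgfra with Vim to 0.88 for Gsn with Dcn. Gsn and Dcn had r = 0.885 (permutation p = 0.00075, adjusted p = 0.00742) and rho = 0.882 (permutation p = 0.0006, adjusted p = 0.0126), and r was 0.771 without control replicates 1 and 4, the samples farthest from the median of Gsn. Ddr2 and Tcf21 had r = 0.87 (permutation p = 0.00062, adjusted p = 0.00742) and rho = 0.773 (permutation p = 0.00735, adjusted p = 0.0416), and r was 0.554 without the farthest samples, control replicates 3 and 4. Much of this rested on control replicate 4: without it the median r over the 36 pairs was 0.42 and 20 pairs were under 0.5, against 5 with it. Over all pairs of tested rows the median without that library was 0.02. An r of at least 0.716 was then found in 6 of the 36 pairs and in 4.4% of all. Dcn with Dpt held at 0.904 without that library and was 0.815 with it. Pdgfra with Dcn went from 0.72 to 0.07. All values of one library share its depth and its mix of cells.

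**Figure D3:**
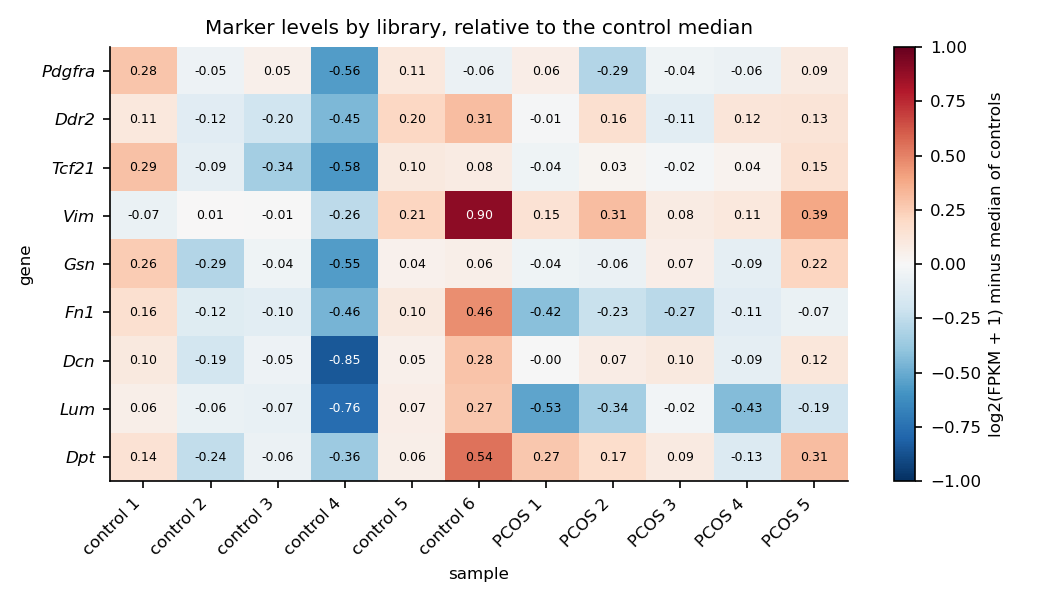
Level of each marker (rows) in each sample (columns) as log2(FPKM + 1) minus the median of the controls; red is above and blue below that median. Control replicate 4 is blue in all 9 rows, control replicate 6 is most red for Vim, and Lum and Fn1 are blue in all 5 PCOS columns.

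Relative to Dcn in the same library, Lum was lower in every PCOS sample than in any control. For each 100 FPKM of Dcn, Lum was at 20 to 22.4 FPKM in the 6 controls, including 21.6 in control replicate 4 and 20.5 in control replicate 6, and at 14.2, 15.3, 18.9, 16.1 and 16.5 FPKM in PCOS replicates 1 to 5. The controls thus held a narrow ratio of 20.9 ± 0.89 (SD, n = 6) although their Dcn levels spanned more than 2-fold. That span rested on control replicate 4, at 110 FPKM of Dcn, as the other controls ran from 175 to 242.5 FPKM. The PCOS samples had a ratio of 16.2 ± 1.74 (SD, n = 5). The log2 difference of the ratio was −0.37, and −0.43 to −0.33 with any single sample left out. It is given as a description with no test, since the pair was chosen for groups that do not overlap. The transcripts are alike in length, 2075 bases for Lum and 2104 for Dcn as implied by the reads.

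The same pattern was compared with all genes and all marker pairs. Of the 36 pairs of markers 3 had ratios that did not overlap between the groups, Dcn to Lum, Ddr2 to Fn1 and Tcf21 to Fn1, where 0.866% of all pairs of tested rows did. When every tested row was taken relative to Dcn, 0.11% had all PCOS samples below all controls, Lum among them. In that fit Lum had a log2 difference of −0.37 (SE 0.19, unadjusted p = 0.0607, limma adjusted p = 0.903) and Fn1 one of −0.37 (SE 0.18, unadjusted p = 0.0479, adjusted p = 0.903), where the median of all rows was −0.15. Neither passed over all rows, of which 0.0918% were called, 0.00918% on the lower side. Every row of that fit carries the spread of Dcn, and limma draws each SE toward the common spread. The SEs of the markers there ran only from 0.18 (Fn1) to 0.20 (Vim). The SE and p of Lum and Fn1 therefore do not measure the spread of their own ratios to Dcn. Fn1 for each 100 FPKM of Dcn was at 3.62 to 4.72 FPKM in controls and at 2.71, 3.01, 2.85, 3.69 and 3.31 FPKM in PCOS, with PCOS replicate 4 just inside the control range. The ratio of Tcf21 to Fn1 was 0.683 to 1.01 in controls and 1.03 to 1.23 in PCOS, and that of Ddr2 to Fn1 0.385 to 0.477 and 0.482 to 0.594. A ratio shows unequal levels of 2 transcripts and does not say which of them changed.

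**Figure D4:**
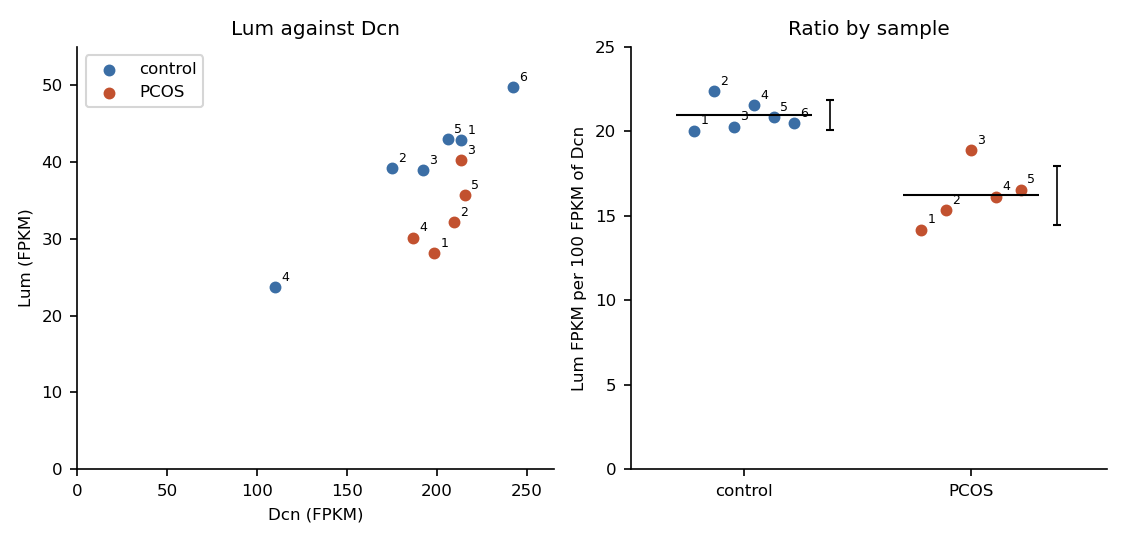
Left, Lum against Dcn in FPKM; right, Lum FPKM per 100 FPKM of Dcn by group; points are samples with their replicate number, lines are means and bars ± SD. The 6 controls lie between 20 and 22.4 and the 5 PCOS samples between 14.2 and 18.9.

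Other genes of fibroblast identity did not pass either. Of 26 listed, 23 were tested, among them the collagens Col1a1, Col1a2 and Col3a1, and 0 passed in either direction (0 also at an unadjusted p under 0.05), with 12 higher, 11 lower and a median log2 difference of 0.00. Control replicate 4 was the lowest sample in 20 of the 23. The smallest p belonged to Fbn1, which encodes the microfibril protein fibrillin-1, at 4.20 ± 0.869 FPKM (SD, n = 6) and 3.38 ± 0.64 FPKM (SD, n = 5) (log2 difference −0.24, SE 0.13, adjusted p = 0.742), and to Pcolce, an enhancer of procollagen processing (0.18, SE 0.11, adjusted p = 0.753). Relative to Dcn, none of the 23 had groups without overlap on the lower side, and their median log2 difference was −0.14. The size of the Lum difference in that fit, −0.37, was not particular to Lum. Fbn1 differed by −0.39 and Pcolce by 0.03. Of genes named below, Cilp differed by −0.49, Itga1 by −0.52 and Meox1 by 0.17, each with groups that overlapped.

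The next list held genes of activated fibroblasts and of myofibroblasts, the contractile form. It had 22 symbols, with Ccn2 and Ccn4 listed also under their older names Ctgf and Wisp1. Of these symbols 12 were tested and 0 were called in either direction (median 0.05, 7 higher and 5 lower, 0 with an unadjusted p under 0.05), and 7 others had rows under the filter. Cilp, a matrix protein of cartilage and of cardiac fibroblasts under load, had a log2 difference of −0.34 (SE 0.17, adjusted p = 0.738), from 1.95 ± 0.663 FPKM in controls and 1.31 ± 0.474 FPKM in PCOS. Meox1, a homeobox factor of activated fibroblasts, was at 4.62 ± 1.9 and 5.79 ± 0.737 FPKM (0.32, SE 0.17, adjusted p = 0.742).

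Partners of the markers were examined by role. Of the other small leucine-rich proteoglycans, 6 were tested and 0 called (median −0.01). Ogn, which encodes osteoglycin, averaged 54.1 ± 4.62 FPKM in controls and 51.1 ± 1.62 FPKM in PCOS (−0.08, SE 0.06, adjusted p = 0.802), and Podn, podocan, differed by 0.06 (SE 0.12). PDGF ligands and the other PDGF receptors had 4 tested and 0 called (median 0.06), with Pdgfrb, the receptor of mural cells, at a difference of 0.12 (SE 0.08, adjusted p = 0.762) and the ligand Pdgfa at 0.10 (SE 0.12). Receptors for collagen, fibronectin and periostin had 7 tested members, all 7 below 0 (median −0.07) and 0 called, with 2 at an unadjusted p under 0.05. These were Itga1, a collagen-binding integrin chain (5.98 ± 1.17 and 4.401 ± 0.995 FPKM, log2 difference −0.37, SE 0.14, adjusted p = 0.738), and Itgb1, the common beta chain of collagen and fibronectin receptors (89.3 ± 9.13 and 77.2 ± 6.14 FPKM, −0.20, SE 0.08, adjusted p = 0.738). Relatives of gelsolin and vimentin had 9 tested and 0 called, with 2 at an unadjusted p under 0.05. Capg, the gelsolin relative of macrophages, was at 5.76 ± 1.11 and 7.56 ± 0.601 FPKM (0.35, SE 0.10, adjusted p = 0.738) beside the higher macrophage list, and Flii differed by −0.17 (SE 0.08). Helix-loop-helix partners and relatives of Tcf21 had 4 tested and 0 called, with Tcf12 at −0.17 (SE 0.09) and the inhibitor Id3 at 0.21 (SE 0.13).

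Markers of other cell types are given as the surroundings of these results. The epicardial list, the layer from which fibroblasts descend, had 4 tested and 0 called, and its summed level ran from 3.31 to 18.7 FPKM in controls and 5.29 to 14.9 FPKM in PCOS. Its named members were Tbx18 (log2 difference 0.19, SE 0.11) and Aldh1a2 (0.33, SE 0.21). The endothelial list had 6 tested and 0 called, at 207.7 to 358.2 FPKM in controls and 245.4 to 315.3 FPKM in PCOS, and control replicate 4 was lowest in all 6. The smooth muscle and pericyte list, with 5 tested and 0 called, was at 139 to 247.9 and 168 to 218.2 FPKM. Of 7 tested macrophage markers 1 was called, Cd68, with all 7 higher and 5 at an unadjusted p under 0.05. Of 5 red blood cell markers 0 were called, with all 5 higher and all 5 at an unadjusted p under 0.05 (summed level 530.3 to 1528 FPKM in controls and 849.4 to 2229 FPKM in PCOS). Cardiomyocyte markers, which identify the tissue as heart, summed to 28159 to 32508 FPKM in controls and 31461 to 34323 FPKM in PCOS, with 0 of 5 called and 1, Tnni3 (log2 difference 0.20, SE 0.09), at an unadjusted p under 0.05. The part of these other cell types in the fibroblast values was not tested. Adipocyte and Schwann cell lists stayed below 4 FPKM in every library.

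The genes whose profiles over the 11 samples were most like each marker were taken from 9470 tested rows with a symbol, outside the markers themselves. Dpt was matched most closely, by Derl2, a protein of the endoplasmic reticulum (Pearson r 0.986, n = 11), and Ecm1, extracellular matrix protein 1 (0.974). For Vim the closest was Acsl5 (0.977), for Dcn they were Dab2 (0.974) and Npr3 (0.962), and for Fn1 Pura (0.968) and Gnai3 (0.96). Lum was most like Ogn (0.911), which is also a small leucine-rich proteoglycan, and Tpm3 (0.91). Ddr2 was closest to Tor4a (0.943) and Ppp1r18 (0.936), and Tcf21 to Gfpt2 (0.932) and Spon1 (0.918). Spon1 was also among the closest to Gsn (0.934), with Sfrp1 (0.943), a secreted antagonist of Wnt signalling. Pdgfra had the least close matches, Lrrc17 (0.898) and Abca8a (0.895), the latter one of the listed fibroblast genes. These are the highest values among many candidates, in samples that share library effects, and carry no test. Without control replicate 4 they ran from 0.763 for Lrrc17 with Pdgfra to 0.982 for Derl2 with Dpt.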

How the data were processed

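RNA of 11 heart samples was sequenced as poly(A)-selected, stranded libraries, per the labels' protocols. The submitters' processing notes name Trimmomatic 0.38, HISAT2 2.2.1, HTSeq 0.13.5 and build mm10; settings and counted strand are not given in the sources used here. The authors deposited 1 FPKM value per gene model and sample, a unit scaled to the library total and the transcript length, so a level is relative to the rest of its library. Symbols and positions came from RefSeq's gene table of GRCm38.p6, with 87.2% of rows matched. Whole reads, recovered from the FPKM steps for all 15939 rows above 0 in at least 3 samples (within 0.15 of a whole number), gave the depth; the recovery and the test were checked on simulated data. Main test: limma 3.58.1 in R 4.3.3 (lmFit, eBayes with trend) on log2(FPKM + 1), for rows averaging 1 FPKM or more, with Benjamini-Hochberg over all 10891 rows. This scale understates changes of low genes. Ratios used log2 FPKM without a pseudocount, except in the fit relative to Dcn and the count over all pairs of rows. Named genes were the markers, the 2 closest profiles to each (1 is not reported here), and of each fibroblast, pathway and epicardial list the 2 tested genes with the smallest p and any called; other cell types are given by summed levels. The genes and lists were chosen with earlier results of these data known. Alternatives were another pseudocount (0.1), no filter, a filter at 5, median-ratio and quantile scaling, a replicate block, arrayWeights, a robust prior, limma's voom on the recovered reads, and leaving out samples. The ratio of Lum to Dcn and the fit without control replicates 4 and 6 were added after the values were seen.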

Additional observations from a re-analysis of the deposited data

Results flagged for a closer look

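Vim in control replicate 6, at 276.3 FPKM, lay far above the other 5 controls, whose highest was 171.8 FPKM (gap of 0.682 of the group's range, against a 95% critical value of 0.625). It was the only such value among 20 groups examined (the 9 markers and the Lum to Dcn ratio, in each group), and chance gives about 1 in 20. The same library held the hepatocyte transcripts, whose part in the level of Vim was not tested.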

How the results depend on the processing

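No marker passed in any of the 23 alternatives, with adjusted p down to 0.118 (Vim, replicate block). Pdgfra and Ddr2 were not tested with a filter at 5. The sign of the difference, though not its size, held in all alternatives for Tcf21, Gsn, Fn1, Lum and Dpt. It turned for Pdgfra without control replicates 2 and 5 (0.025), without control replicates 2, 5 and 6 (0.030), and without control replicate 1 (0.055), 3 (0.0095) or 5 (0.021) or PCOS replicate 2 (0.052). With single samples left out, the differences ran from −0.11 to 0.055 for Pdgfra, −0.00 to 0.15 for Ddr2, 0.02 to 0.20 for Tcf21, −0.00 to 0.23 for Vim, 0.02 to 0.18 for Gsn, −0.32 to −0.13 for Fn1, −0.00 to 0.23 for Dcn, −0.36 to −0.15 for Lum and 0.05 to 0.24 for Dpt. The low ends of Ddr2, Vim and Dcn, which turned their sign (−0.00212, −0.00114 and −0.0011), came without control replicate 4. Without control replicates 2, 5 and 6 several differences went beyond these ranges. Lum was then at −0.05, Fn1 at −0.08, Dcn at 0.31, Ddr2 at 0.24 and Tcf21 at 0.24. Vim was at 0.32 in that fit (limma unadjusted p = 0.00425, adjusted p = 0.361). The sizes thus depended on which controls were kept. The count of called rows over all genes, 15, was 5 with a filter at 5, 25 with sample weights, 25 with the replicate number as a block, and 10 to 32 with each sample left out (32 without control replicate 6); the cause was not tested, except that the filter leaves fewer rows. Same-numbered samples did not all deviate together (correlations of −0.12 to 0.25). These correlations cannot settle whether the numbers pair samples, since a weak shared effect could look the same, and the labels do not say so. The block drops control replicate 6, which has no partner. The log2 difference of Lum to Dcn stayed between −0.43 and −0.33 in all 15 alternatives run. Apart from a pseudocount of 1, these only left out samples. The pair was chosen for groups that do not overlap, so leaving out samples could not turn its sign. Depth limits Tcf21 most, with 67 to 140 reads per sample.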
